A study of Mus musculus with 6 samples.

Results

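Egr1, Egr2 and Egr3 encode zinc finger transcription factors, Nab1 and Nab2 encode corepressors that bind Egr proteins, and Arc encodes a cytoskeletal protein best known from neurons. These 6 genes were described in RNA sequencing of E14.5 mouse lenses, dissected at the transition zone, among 23420 genes in the count table. They were chosen by symbol after earlier results of the same data showed Egr1, Nab1 and Nab2 higher together in the mutant libraries. Their values in the comparison of mutant with control libraries are therefore a description, without a test, and support nothing.

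The transition zone is the lens equator, where epithelial cells leave the cell cycle and elongate into fibres. The 3 control libraries came from embryos carrying Le-Cre, a transgene that makes Cre recombinase in the surface ectoderm from which the lens forms. The 3 mutant libraries came from Le-Cre embryos that were also Etv4-/-, Etv5 fl/fl and Etv1 fl/fl. Both groups thus carried Cre, and both were of mixed strain background. The Etv4 allele is null in all tissues of the mutant embryos, whereas loss of Etv5 and Etv1 is limited to cells with Cre. Nothing in the labels ties a library to an embryo of its own. The p-values therefore reflect only how far these libraries spread, which may be technical.

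Egr genes are immediate early genes: extracellular signals that activate ERK lead within minutes to their transcription through serum response factor (SRF) and its ETS-family partners. Egr proteins bind GC-rich sites, and Nab proteins bind Egr1, Egr2 and Egr3 and mostly reduce their activity. Nab2 is itself a known target of Egr factors, which makes the pair a negative feedback loop. In neurons Arc is another target of SRF and of Egr factors.

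Promoters are shown first so that the letters before the Nab genes can be set against the Egr site. Of the 6 genes, 3 (Nab1, Nab2 and Egr2) had an entry among RefSeq promoters of GRCm38.p6, a different build from that of the counts. Egr1, Egr3 and Arc had none, so no promoter of theirs was searched. The Egr site GCGNGGGCG was searched on both strands in the 250 bases before each start, and Nab1 held 3 matches. They are shown with 10 bases on either side, 5′ to 3′ on the strand of the gene, with the match in capitals. The first lies on the opposite strand, 141 to 133 bases before the start (chr1:52500571-52500599, minus strand), the next 109 to 101 bases before it (chr1:52500539-52500567, minus strand) and the last 38 to 30 bases before it (chr1:52500468-52500496, minus strand).
Nab1 site at 141: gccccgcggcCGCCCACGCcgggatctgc
Nab1 site at 109: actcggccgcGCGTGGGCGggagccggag
Nab1 site at 38: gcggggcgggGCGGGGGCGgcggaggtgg

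Among all 32851 promoters, 4.70% held at least 1 such match and 0.140% held 3 or more. Base composition goes with this count: the Nab1 window was 80.8% G or C, against a median of 52.4%. Among the 3037 promoters of at least 70% G or C, 26.0% held a match and 1.42% held 3 or more. A match describes letters and is not evidence of binding. In the GENCODE annotation a longer Nab1 transcript starts further upstream, so these sites lie in its first exon.

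The Nab2 window, 72.8% G or C, held no exact match and 1 stretch that was 1 base off the Egr site, on the opposite strand at 33 to 25 bases before the start. Such a near match was found in 30.5% of all promoters and in 93.6% of the GC-rich ones. The window is printed without the 7 bases that GENCODE places in the first exon, with the near match in capitals (chr10:127666711-127666953, minus strand).
Nab2: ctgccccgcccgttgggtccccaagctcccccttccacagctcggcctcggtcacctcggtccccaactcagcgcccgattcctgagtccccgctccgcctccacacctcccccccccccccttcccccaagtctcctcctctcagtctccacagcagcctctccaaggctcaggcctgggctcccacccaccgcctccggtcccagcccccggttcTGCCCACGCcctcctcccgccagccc

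Egr2 had 5 annotated starts. The windows of 4 of them held a CArG box, the site of SRF, against 1.47% of all promoters. Of these windows 3 overlap and share 1 box, shown here for Egr2 alone, as no Egr1 promoter was searched (chr10:67537787-67537816, plus strand).
Egr2 CArG box: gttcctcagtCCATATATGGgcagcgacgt
The ETS core CCGGAA was found in 1 of the Egr2 windows, where it occurred 3 times with 2 of the matches overlapping on opposite strands, and in neither Nab window. It was present in 12.03% of all promoters.

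Egr1 was higher in every mutant library. Its level in normalized CPM, that is, its count scaled by the TMM-adjusted library total, was 6.13, 12.4 and 12.4 in control libraries 1, 2 and 3. Mutant libraries 1, 2 and 3 stood at 209.0, 87.7 and 193.1 CPM. The lowest mutant value was 7.07 times the highest control value. Control libraries averaged 10.3 CPM ± 3.61 and mutant libraries 163.3 CPM ± 65.9 (SD, n = 3 each), for a fitted log2 fold change of 3.98 ± 0.42 (SE). Mutant library 2 was the lowest of its group and control library 1 the lowest of the other.

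Egr2, which acts in hindbrain and Schwann cell development, stayed close to the detection limit. It had 4, 8 and 4 counts in control libraries and 4, 0 and 19 in mutant libraries 1, 2 and 3. The groups overlapped, and the ratio of summed counts was 1.37 (95% exact interval 0.694 to 2.78, counting error only). Egr3, a close relative that acts in muscle spindles and lymphocytes, had no count in any control library or in mutant library 1, and 1 and 2 counts in mutant libraries 2 and 3. Both groups were at or under 3 counts, so no fold is given. For the library of least depth, mutant library 2, 0 counts still allow 0.247 CPM.

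**Figure D1:**
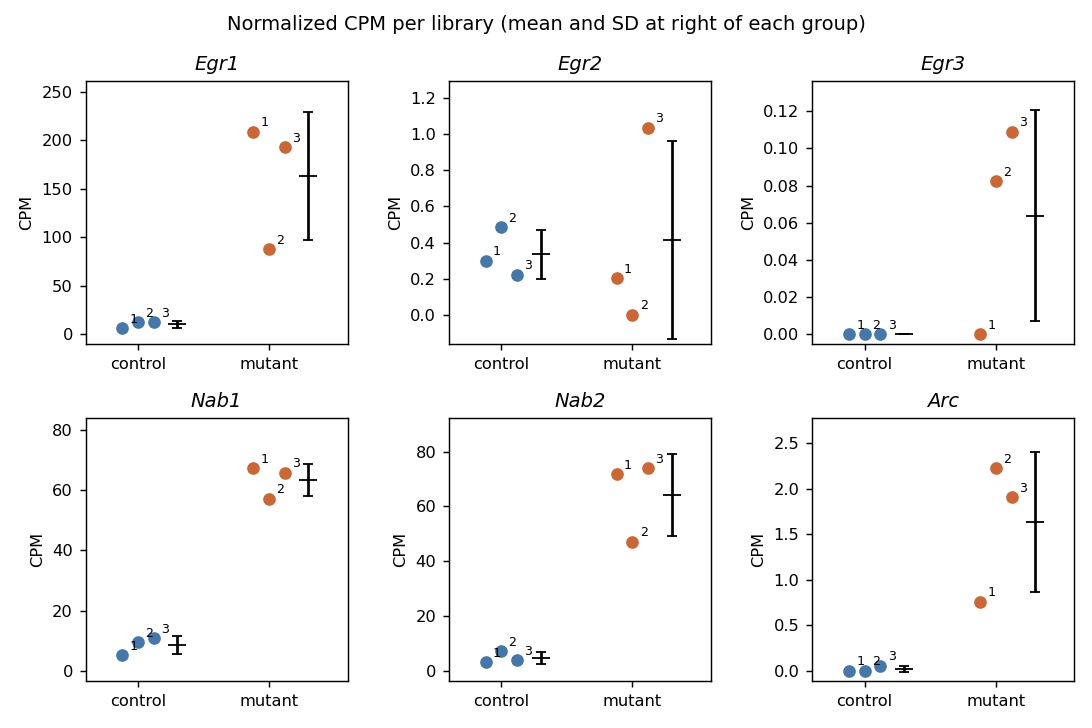
Normalized CPM (y axis, a separate linear scale per gene) of the 6 genes in each control and mutant library, numbered by replicate, with the group mean and SD (n = 3) as a bar at the right of each group. Egr1, Nab1, Nab2 and Arc do not overlap between groups, whereas Egr2 and Egr3 do.

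Both corepressor genes were higher in the mutant libraries. Nab1 stood at 5.08, 9.42 and 10.8 CPM in control libraries 1, 2 and 3, and at 67.2, 57.1 and 65.7 CPM in mutant libraries 1, 2 and 3. Control libraries averaged 8.44 CPM ± 2.99 and mutant libraries 63.4 CPM ± 5.43 (SD, n = 3 each), for a log2 fold change of 2.90 ± 0.27 (SE). The mutant values of Nab1 lay within 1.18-fold of one another, a narrower range than the 2.38-fold of Egr1. Nab2 stood at 3.14, 7.17 and 3.88 CPM in control and 71.8, 47.1 and 73.9 CPM in mutant libraries 1, 2 and 3. For Nab2 the control mean was 4.73 CPM ± 2.14 and the mutant mean 64.3 CPM ± 14.9 (SD, n = 3 each), for a log2 fold change of 3.76 ± 0.34 (SE). For Egr1, Nab1 and Nab2 alike, control library 1 and mutant library 2 were the lowest of their groups.

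Arc was nearly absent from the controls. It had 0, 0 and 1 count in control libraries 1, 2 and 3, and 15, 27 and 35 counts in mutant libraries 1, 2 and 3. The ratio of summed counts was 73.5 (95% exact interval 12.8 to 2940, counting error only). Mutant library 2, the lowest of its group for Egr1, had the highest Arc level (2.23 CPM, against 0.761 and 1.91 CPM in mutant libraries 1 and 3). Of the 7 markers of nerve and neuron, only Snap25 had no count in any library. Their summed level was 8.48 to 10.5 CPM in control and 5.89 to 12.3 CPM in mutant libraries. It was above the level of Arc in every library, and a part of neuronal cells in the Arc values was not tested.

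Of the 6 genes, 4 passed the filter on low counts, Arc only through the mutant libraries. All 4 were past the adjusted p threshold of 0.05 in edgeR's quasi-likelihood fit, as were 1.14% of the 12257 tested genes in the same direction, 1.08% in the opposite direction and 2.22% in either. All 4 had non-overlapping groups with higher mutant values, as had 11.4% of tested genes. Since the genes were chosen on this comparison, nothing is read from these counts. The Arc call was lost without any 1 library other than mutant library 2, with fitted log2 fold changes between 5.40 and 7.70 that depend on the prior count and are no bound. In the authors' deposited table, positive values stand for higher mutant expression, and the log2 fold changes were 3.81 for Egr1, 2.82 for Nab1, 3.62 for Nab2, 3.59 for Arc, 0.18 for Egr2 and 0.38 for Egr3.

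Dividing by the exonic length in GENCODE allows levels of different genes to be compared. In control libraries Egr1, Nab1 and Nab2 lay close together, at 2.30 ± 0.804, 2.06 ± 0.728 and 1.61 ± 0.729 CPM per kilobase (SD, n = 3). These SDs are between libraries, and within each control library Egr1 was the highest of these genes. In mutant libraries Egr1 averaged 36.4 ± 14.7, Nab2 21.8 ± 5.07 and Nab1 15.5 ± 1.33 CPM per kilobase (SD, n = 3). The level of Egr1 in mutant library 2, 19.5 CPM per kilobase, lay within the range of Nab2 over the mutant libraries, 16.0 to 25.1. Nab2 in that same library stood at 16.0, and within each mutant library Egr1 was above Nab2 and Nab1. Arc, at 0.534 ± 0.252 CPM per kilobase (SD, n = 3), and Egr2, at 0.122 ± 0.162 (SD, n = 3), were far below these genes in the mutant libraries.

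The balance between the genes also differed between libraries. The ratio of Nab2 to Nab1 counts was 0.618, 0.761 and 0.359 in control and 1.07, 0.824 and 1.12 in mutant libraries 1, 2 and 3, without overlap between groups. The summed counts of Nab1 and Nab2 over those of Egr1 gave 1.34, 1.34 and 1.19 in control and 0.665, 1.19 and 0.723 in mutant libraries. In that ratio mutant library 2 matched the controls, while mutant libraries 1 and 3 had less Nab per Egr1. Both ratios come from the comparison on which the genes were chosen and were not tested.

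**Figure D2:**
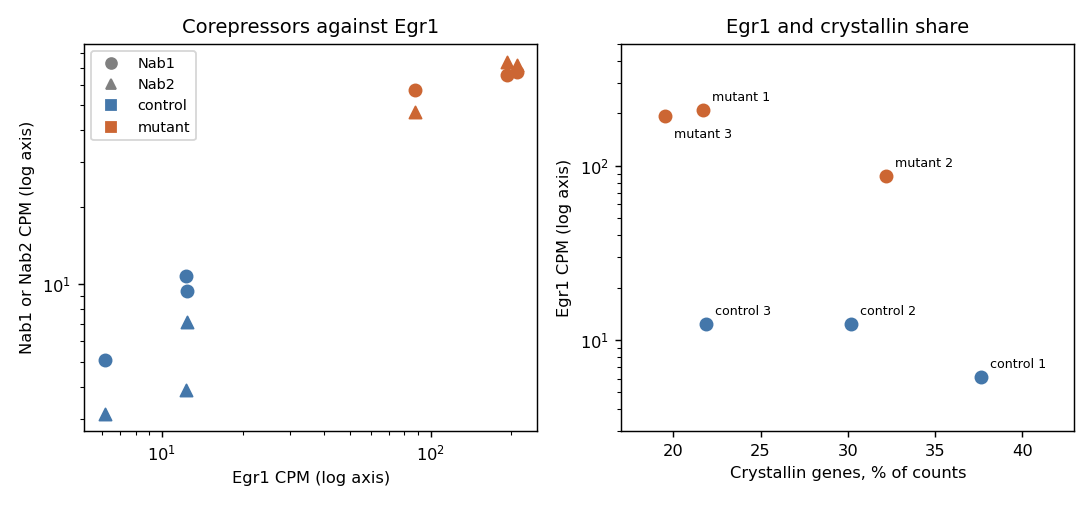
Left, CPM of Nab1 (circles) and Nab2 (triangles) against Egr1 in each library, both axes logarithmic; right, Egr1 CPM (log axis) against the share of counts from crystallin genes in percent. Mutant libraries (orange) lie above control libraries (blue) in both panels.

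Library totals ran from 13364742 to 17301168 counts. Lens identity was plain: 16 crystallin genes took 19.5% to 37.6% of counts, and the lens epithelium genes Pax6 and Foxe3 were present in every library. Mutant library 1 alone was female by its Xist and Ddx3y counts. Of the deleted genes, Etv1 fell (log2 fold change -1.11 ± 0.21 (SE); edgeR adjusted p = 0.0319). Etv5 had a log2 fold change of -0.93 ± 0.19 and Etv4 one of 0.64 ± 0.36 (SE), and neither passed in edgeR (adjusted p = 0.0503 and 0.427). Etv5 passed with DESeq2 (adjusted p = 0.00123) and with limma voom (adjusted p = 0.0230). Leaving out control library 2 or 3, or mutant library 1 or 3, ended the Etv1 call, at log2 fold changes from -1.18 to -0.94. Gene counts can include exons that a deletion leaves in place, so they do not check the labels.

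Crystallins are the abundant proteins of fibre cells, and their share of counts differed within groups as well. Control library 1 and mutant library 2 had the largest shares of their groups, 37.6% and 32.2%, and the lowest Egr1. At a share of 21.8% control library 3 had 12.4 CPM of Egr1, against 209.0 and 193.1 CPM in mutant libraries 1 and 3 at 21.7% and 19.5%. Control library 2, at 30.2%, had 12.4 CPM against 87.7 CPM in mutant library 2 at 32.2%. All 9 tested markers of lens fibres had negative log2 fold changes (median -0.87), and none passed in edgeR; 4 had an unadjusted p under 0.05, DESeq2 called 2 and limma voom 3. Over all tested genes 16.2% had such a p, and DESeq2 called 6.7% and limma voom 6.59%. The summed level of the 6 markers of lens epithelium, where 2 were positive and none passed (edgeR, 0 with an unadjusted p under 0.05, 0 with DESeq2 or limma voom), was 296.2 to 939.5 CPM in control and 392.4 to 715.6 CPM in mutant libraries. The part of fibre content in the Egr1 and Nab values was not tested. In bulk tissue, fewer cells of a type and less RNA per cell cannot be told apart.

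Macrophages also express Egr genes, and their markers were scarce. The summed level of 8 macrophage markers was 1.44 to 10.02 CPM in control and 4.21 to 33.1 CPM in mutant libraries. None of the 6 tested passed in edgeR, where all 6 had positive log2 fold changes and 3 had an unadjusted p under 0.05. DESeq2 called 0 and limma voom 1. Over all tested genes 16.2% had such a p, and DESeq2 called 6.7% and limma voom 6.59%. In mutant library 2 the sum was 4.21 CPM, within the control range, while Egr1 stood at 87.7 CPM there. In mutant libraries 1 and 3 it was 29.8 and 33.1 CPM, above every control library, and its part in their higher Egr1 was not tested. Summed markers of endothelium (23.2 to 55.8 CPM), surface ectoderm and cornea (3.29 to 17.1 CPM), retina (3.51 to 17.6 CPM) and periocular mesenchyme (5.15 to 17.3 CPM) overlapped between groups. Within the mesenchyme list Twist1 and Col3a1 lay on opposite sides, at log2 fold changes of 3.21 ± 0.99 and -3.02 ± 0.91 (SE); neither passed in edgeR (adjusted p = 0.160 and 0.152), both had an unadjusted p under 0.05, and DESeq2 called both and limma voom neither. Those of blood did too (52.5 to 270.3 CPM), where the 4 adult globin genes Hba-a1, Hba-a2, Hbb-b1 and Hbb-b2 had no counts. Krt12 of cornea and Crx of retina had no count in any library.

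The genes whose values across the 6 libraries were most like those of Egr1 were sought among 9267 tested genes of at least 5 CPM. Likeness was the root mean square difference of log2 CPM (pseudocount 0.5), with each gene centred on its own mean. The closest were Tmem26 (0.225), Anxa2 (0.335), Plekhf1 (0.430), Ptgds (0.528) and Rcsd1 (0.582). Nab2 itself lay at 0.335 from Egr1, and 1 of the candidates, Tmem26, was closer. For Nab2 the closest were Plekhf1 (0.188), Anxa2 (0.301), Tmem26 (0.377), Nxnl2 (0.414) and Rcsd1 (0.416), so that 4 genes appear in both lists. Nab1 was less alike, at 0.597 from Egr1 and 0.511 from Nab2. All these genes share the same libraries and the same large group difference, and the distances are a description.

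Neighbouring genes were examined because the strain background was mixed and the library kit does not mark strand. None of the 28 tested genes among the 36 nearest neighbours, 3 on each side of each gene, passed in edgeR. At an unadjusted p under 0.05 there were 5, and DESeq2 called 1 and limma voom 3. Over all tested genes these shares were 16.2%, 6.7% and 6.59%. The 6 neighbours of Egr1 had log2 fold changes between -0.47 and 0.15, and those of Nab1 between -1.03 and 1.09. Nab2 differed from these: its gene end overlaps that of Stat6, a cytokine-activated transcription factor gene, by 70 bases in the RefSeq annotation. Stat6 had 18, 30 and 7 counts in control and 155, 44 and 109 in mutant libraries. The fitted log2 fold change of 2.30 ± 0.58 (SE) did not pass in edgeR (adjusted p = 0.0935) and passed with DESeq2 and limma voom. Stat6 counts were 0.429, 0.254 and 0.100 times those of Nab2 in control libraries 1, 2 and 3, and 0.0771 to 0.110 times in mutant libraries. Whether counts were shared across the overlap was not tested. On the other side of Nab2, 1700012D01Rik, chosen for mention once its values were known, stood at a log2 fold change of 2.69 ± 0.95 (SE). It did not pass in edgeR (adjusted p = 0.211) or with DESeq2, and passed with limma voom.

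**Figure D3:**
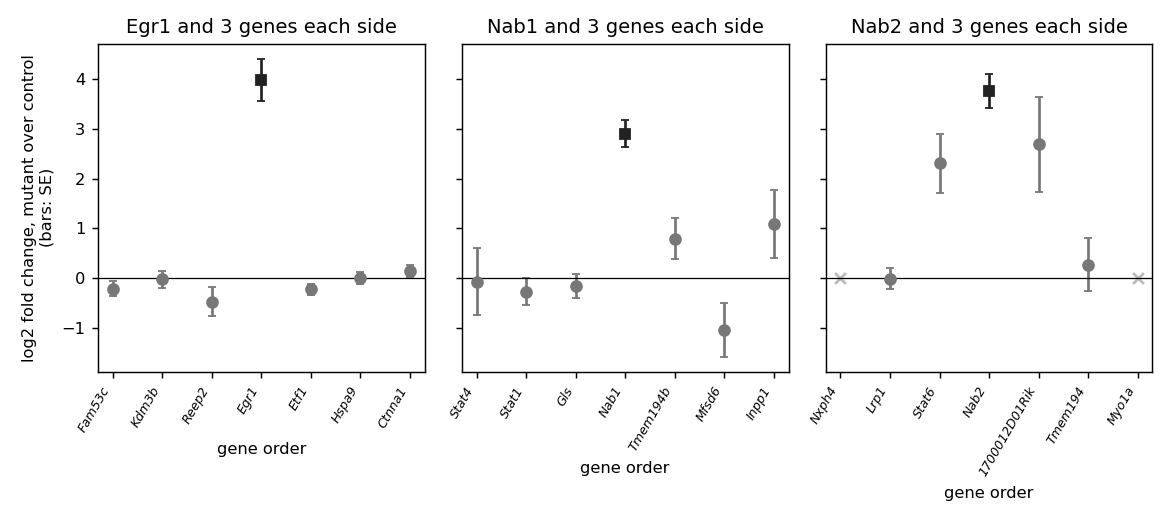
Log2 fold change of mutant over control (y axis, bars are SE) for Egr1, Nab1 and Nab2 (squares) and the 3 nearest genes on each side in gene order (circles; crosses mark genes too low to test). The neighbours of Egr1 and Nab1 lie between -1.03 and 1.09, while Stat6 and 1700012D01Rik beside Nab2 lie at 2.30 and 2.69.

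Genes upstream of the Egr response were taken in a pair of lists. None of the 6 tested genes of SRF and its partners passed in edgeR, with a median log2 fold change of 0.13 against 0.00 over all tested genes. DESeq2 and limma voom called 0, against 6.7% and 6.59% of all tested genes. At an unadjusted p under 0.05 there were 2, against 16.2% of all tested genes. These were the genes of the ternary complex factors Elk3 (log2 fold change 0.70 ± 0.27) and Elk1 (0.50 ± 0.21), ETS proteins that bind SRF (SE; edgeR adjusted p = 0.251 and 0.284). Among 9 kinases and related genes that reach these factors, 1 fell and 8 did not pass in edgeR, against 1.08% of all tested genes that fell. Of the 9, 6 had positive log2 fold changes, and the median was 0.15. At an unadjusted p under 0.05 there were 2, against 16.2% of all tested genes. These were Rps6ka2 and Mapk3, which was higher in the mutant libraries (log2 fold change 0.47 ± 0.13 (SE), edgeR adjusted p = 0.123). DESeq2 and limma voom each called 1, Rps6ka2, against 6.7% and 6.59% of all tested genes. Rps6ka2, which encodes a ribosomal S6 kinase activated by ERK, fell: it stood at 128.4, 77.8 and 109.0 CPM in control and 34.4, 51.4 and 51.3 CPM in mutant libraries. The log2 fold change was -1.20 ± 0.23 (SE), with an edgeR adjusted p of 0.0354. Leaving out library 1 or 3 of either group ended the call, at log2 fold changes from -1.29 to -1.03.

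Among 18 tested immediate early genes other than Egr1, 2 rose and 16 did not pass in edgeR, against 1.14% of all tested genes that rose, and 7 had positive log2 fold changes. At an unadjusted p under 0.05 there were 5, against 16.2% of all tested genes. DESeq2 called 4 (Fos, Junb, Ier2 and Zfp36) and limma voom 4 (Fos, Junb, Ier2 and Btg2), against 6.7% and 6.59% of all tested genes. Of these genes Zfp36 was lower in the mutant libraries and the others were higher. Zfp36 had a log2 fold change of -1.01 ± 0.28 (SE) and an edgeR adjusted p of 0.115. The median log2 fold change of the 18 genes was -0.07, and 0.32 without control library 3. Fos, which encodes an AP-1 subunit, stood at 1.12, 1.82 and 3.22 CPM in control and 21.2, 17.6 and 28.8 CPM in mutant libraries, with a log2 fold change of 3.43 ± 0.40 (SE) and an edgeR adjusted p of 0.00411. Junb, another AP-1 subunit gene, stood at 3.59, 2.98 and 3.88 CPM in control and 11.2, 9.32 and 11.7 CPM in mutant libraries. For Junb the log2 fold change was 1.63 ± 0.27 (SE), with an edgeR adjusted p of 0.0195. Leaving out control library 2 or 3, or mutant library 1 or 3, ended the Junb call, at log2 fold changes from 1.52 to 1.71, whereas Fos passed in each of these fits. Of the 6 tested activity-regulated neuronal genes, the group in which Arc is best known, none passed in edgeR; 1 had an unadjusted p under 0.05 (Gadd45b, log2 fold change -1.69 ± 0.62 (SE)), and DESeq2 and limma voom called 0. Nptx2 had a log2 fold change of 1.13 ± 0.85 (SE).

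**Figure D4:**
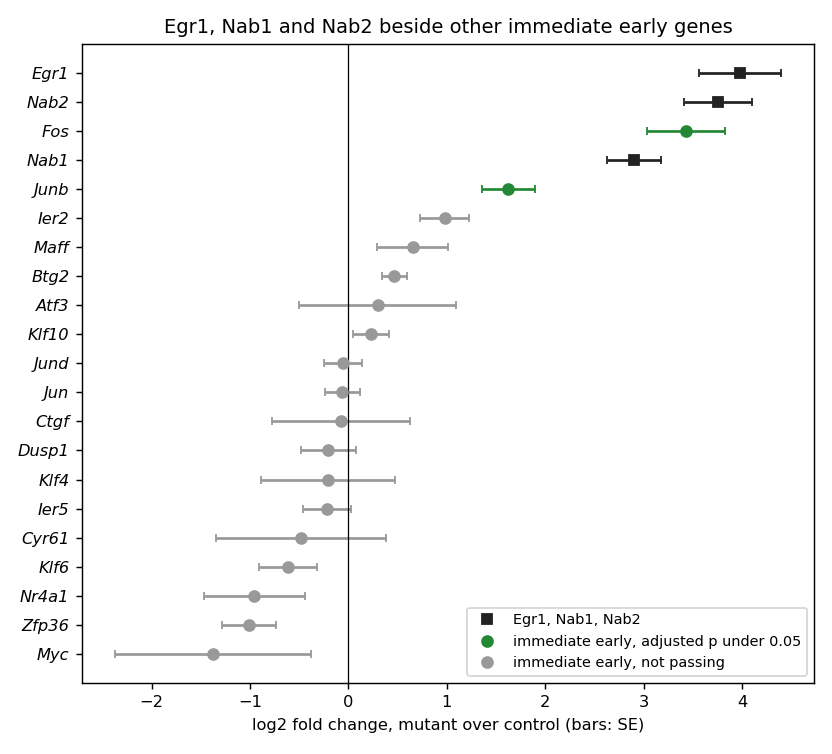
Log2 fold change of mutant over control (x axis, bars are SE) for Egr1, Nab1 and Nab2 (black squares) and the 18 tested immediate early genes (circles, green where the edgeR adjusted p was under 0.05). Fos at 3.43 and Junb at 1.63 passed, and the other 16 genes did not.

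Nab2 recruits the NuRD chromatin remodelling complex through Chd4, and none of 13 tested NuRD genes passed in edgeR (median log2 fold change 0.17). At an unadjusted p under 0.05 there were 3, and DESeq2 and limma voom each called 2. Over all tested genes these shares were 16.2%, 6.7% and 6.59%. The histone-binding subunit genes Rbbp7 and Rbbp4 were those called by DESeq2 and limma voom. Their log2 fold changes were 0.57 ± 0.13 and 0.47 ± 0.13 (SE), with edgeR adjusted p of 0.0659 and 0.114. Of the zinc finger genes with related binding sites, Sp3 and Sp1 stood at 0.22 ± 0.17 and 0.18 ± 0.31 (log2 fold change, SE), and neither passed in edgeR (0 of 2 tested had an unadjusted p under 0.05, and DESeq2 and limma voom called 0). Egr4, the remaining family member, had no count in any library.

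Of the genes described elsewhere as Egr1 targets, none of the 16 tested passed in edgeR, 6 had positive log2 fold changes and the median was -0.24; 5 had an unadjusted p under 0.05, DESeq2 called 4 and limma voom 3. All tested genes gave shares of 16.2%, 6.7% and 6.59% by the same rules. Limma voom called Igf2, Mmp14 and Thbs1, and DESeq2 these and another gene. Igf2 and Mmp14 were higher in the mutant libraries, and Thbs1 and the other gene were lower. The log2 fold changes of Mmp14 and Thbs1 were 2.30 ± 0.56 and -3.50 ± 0.87 (SE), with edgeR adjusted p of 0.0910 and 0.0980. Igf2, which encodes a fetal growth factor, stood at 382.5, 240.5 and 211.2 CPM in control and 555.6, 899.9 and 627.6 CPM in mutant libraries (log2 fold change 1.32 ± 0.27 (SE); edgeR adjusted p = 0.0507). Among 3 tested genes of the list described for Egr2 in myelin and hindbrain, 1 fell and 2 did not pass in edgeR. Over all tested genes 1.08% fell. The same gene alone had an unadjusted p under 0.05 and was called by DESeq2 and limma voom. Pmp22, a myelin membrane protein gene also expressed in epithelia, stood at 728.8, 610.2 and 661.1 CPM in control and 90.8, 72.3 and 111.7 CPM in mutant libraries (log2 fold change -2.86 ± 0.19 (SE); edgeR adjusted p = 0.000358).

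Matches to the Egr site seen before Nab1 were also counted over all tested genes with a RefSeq promoter. At least 1 was present in 11.0% of 9182 tested genes, in 13 of 98 genes that rose (13.3%) and in 10 of 94 that fell (10.6%). The ETS core was present in 26.0% of tested genes, 17.3% of those that rose and 20.2% of those that fell. These shares are given as a description.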

How the data were processed

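RNA from 6 lens transition zone libraries was amplified with an ultra-low input SMART-seq kit, per the labels' protocols, which does not mark strand or count molecules. Values deposited by the authors are raw counts, 1 row per gene symbol. Per the submitters' processing notes, mm9, DESeq, Cufflinks, TopHat and bcl2fastq 1.8.4 were used, in roles left unstated; which counter and annotation were used is not given in the sources used here. A results table deposited by the authors holds a mean signal of normalized counts, log2 fold changes with standard errors, a test score and p-values; only its log2 fold changes are quoted.

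The series table and the per-library files held identical counts (0 differing). Genes were filtered by filterByExpr (minimum count 10, minimum total 15), scaled by TMM and compared with edgeR 4.0.16 in R 4.3.3 (robust quasi-likelihood F test, no covariates), adjusted by Benjamini-Hochberg over 12257 genes. Standard errors come from the F statistic. Alternatives were DESeq2 1.42.0, limma 3.58.1 voom, other scalings and filters, a replicate block, and leaving out each library.

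The members and lists were chosen with earlier results of these data known. Outside the rule that follows, some genes were named once their values were known. Named genes were the members, the deleted genes, up to 6 called genes or otherwise up to 2 of lowest p per list, overlapping or called neighbours, and the 5 genes most like Egr1 and Nab2. One gene that the rule names is not reported here. The fit was tested on simulated counts. With dispersions specific to each gene, the share of false calls was above the nominal level and some genes were called when none was changed. A trended dispersion, added after seeing that, gave fewer false calls, though still a share above the nominal level.

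Intervals cover counting error only.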

Additional observations from a re-analysis of the deposited data

How the results depend on the processing

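The direction of Egr1, Nab1, Nab2 and Arc was the same under every alternative that tested them, and Egr1, Nab1 and Nab2 stayed past the threshold in each. Over all alternatives the log2 fold change lay between 3.72 and 4.28 for Egr1, 2.65 and 3.12 for Nab1, and 3.54 and 4.19 for Nab2. That of Arc was 4.90 with limma voom and 5.40 to 7.70 when single libraries were left out; a filter of 5 CPM in 3 libraries removed it. Of the members, 4 were called, and 3 to 4 with single libraries left out.

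Over all genes 272 were called, 140 higher and 132 lower. DESeq2 called 821 (401 higher, 420 lower) and limma voom 808 (392 and 416). With single libraries left out the count lay between 91 and 479 (54 to 213 higher, 36 to 266 lower), lowest without mutant library 3 and highest without mutant library 2; it was 92 without control library 2, 142 without control library 3 and 98 without mutant library 1. The pathway lists had 4 called genes, 12 with DESeq2, 11 with limma voom and 2 to 7 with single libraries left out. Neighbours had 0, 1 with DESeq2, 3 with limma voom and 0 to 1 with single libraries left out. The cause was not tested.

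Same-numbered libraries did not deviate together (correlations of -0.33, -0.18 and 0.25), so the numbers were not taken as pairs. With the replicate number as a block 122 genes were called (68 higher, 54 lower), 2 in the pathway lists and 3 of the members, Arc being lost.

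Counts of at most 8 per control library limit what can be said of Egr2, Egr3 and Arc.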
